A study of Mus musculus with 12 samples.

Results

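The response of cultured mouse hepatocytes to FAC alone was measured by RNA sequencing, with the 3 libraries titled as FAC treated set against the 3 titled as control. These 6 libraries were chosen by title from the 12 of the series. Hepatocytes are the cells that carry out most metabolic work of the liver, and these were primary cells, taken from liver rather than from a cell line. Control cells received neither a pretreatment nor FAC, and FAC cells received FAC without a pretreatment, in a culture whose other groups were pretreated on day 2. The labels do not spell FAC out. In iron biology the letters commonly stand for ferric ammonium citrate, a salt used to load cells with iron. The dose and duration of FAC, and the strain, sex and age of the mice, are not given in the sources used here. The remaining 6 libraries received liproxstatin-1 or Mito-TEMPO before FAC and entered only the shared estimate of spread. Nothing in the labels says that replicates came from separate mice or cultures, so that p-values measure the spread between these samples, which may be technical.

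Hepatocytes take up iron as a complex with transferrin, store it in ferritin and release it through ferroportin, the only known iron exporter of mammalian cells. Iron regulatory proteins bind a stem-loop in several of these messenger RNAs, the iron-responsive element, when iron is scarce. Iron also catalyses the formation of radicals, and cells meet oxidants with the transcription factor NRF2, whose target genes make glutathione, reduce thioredoxin and degrade heme. Ferroptosis is a form of cell death in which iron-dependent peroxidation of membrane lipids runs ahead of this defence.

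The control libraries held 23346252, 26352195 and 25380219 gene-assigned read counts and the FAC libraries 27588576, 52529278 and 25055659. FAC replicate 2, whose file is marked as combined without saying of what, thus had the greatest depth. Pearson correlations of log2 CPM (counts per 1000000 after scaling) were 0.986 to 0.9905 within groups and 0.9711 to 0.9794 between them. The summed level of 12 hepatocyte markers was 71500 to 76400 CPM in control and 63500 to 67800 CPM in FAC. Trf was the most abundant of them, and 2 of the 12 were higher and 5 lower in the test described below. Markers of T cells, B cells and neutrophils summed to under 1 CPM in each library. Sums for Kupffer cells were 232 to 263 CPM in control and 293 to 325 CPM in FAC, nearly all of it Cd68, and the defining markers Adgre1 and Clec4f were at 1.5 CPM or less. Cholangiocyte markers summed to 222 to 243 and 253 to 274 CPM, and stellate cell markers to 38.1 to 43.5 and 44.0 to 51.9 CPM. Of the 8 stellate cell markers with enough counts to test, 1 was higher and 1 lower, so that their sum does not stand for the whole set. The part of these cell types in the results below was not tested. In bulk samples a change in the number of cells of a type and a change in RNA per cell cannot be told apart.

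FAC changed a large part of the hepatocyte transcriptome, mostly by small amounts and in both directions. Of 13535 genes with enough counts to test, 4960 (36.6%) passed an adjusted p of 0.05 in the quasi-likelihood test of edgeR, 2373 higher in FAC (17.5%) and 2587 lower (19.1%). These genes are called higher or lower below, and a gene described as having risen or fallen is one of them. The median absolute log2 fold change of the called genes was 0.49, and 60.8% of them changed by less than 1.5-fold. Changes of at least 1 on the log2 scale were seen in 760 genes (5.62%), 379 higher and 381 lower, and changes of at least 2 in 50 and 54 genes. The 3 libraries of one group did not overlap with those of the other in 6258 genes (46.2%). The median log2 fold change of all genes tested was -0.01, which serves as the background for the medians of gene lists below.

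**Figure D1:**
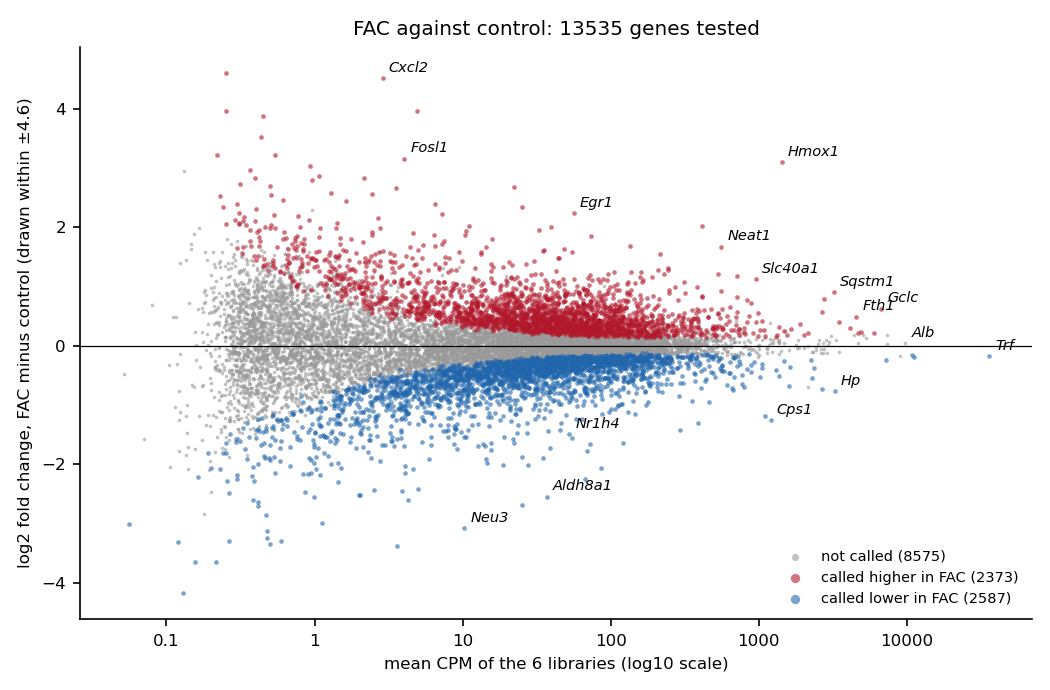
Log2 fold change of each of the 13535 genes tested (y axis, FAC minus control) against its mean CPM over the 6 libraries (x axis, log10 scale), with the 2373 genes called higher in red, the 2587 called lower in blue and the others in grey. Called genes of 1000 CPM and more have a median absolute change of 0.32, with Cps1 and Cyp2b10 below -1, and Hmox1 stands apart from other genes of its abundance.

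The share of genes called was 9.69% of 2209 genes under 1 CPM, 31.8% of 3347 genes between 1 and 10 CPM and 46.2% of 5943 genes between 10 and 100 CPM. Of the 99 genes at 1000 CPM and more, 24 were higher and 19 lower, with a median absolute change of 0.32 among those called. Genes called higher took up 198852 CPM in control and 269787 CPM in FAC, and genes called lower 275104 and 214254 CPM. Gclc, the catalytic subunit of the rate-limiting enzyme of glutathione synthesis, gained the most CPM of the called genes, 5256, 5196 and 5434 CPM in the control libraries and 8058, 8131 and 8272 CPM in the FAC libraries. Hmox1, Sqstm1, Fth1, Mt1, Sat1 and Krt18 followed among the called genes whose mean CPM rose most. The largest called losses of CPM fell on Trf, Hp, Hpx, Cp, Selenop, Gc, Cps1 and Cyp2b10. Trf, which encodes the plasma iron carrier transferrin, took the most reads of these at 36133, 40188 and 38052 CPM in the control libraries and 34530.4, 33966 and 32199 CPM in the FAC libraries. Its log2 fold change was -0.18, the call was lost without any one of control replicate 2 (-0.14), control replicate 3 (-0.18), FAC replicate 2 (-0.19) and FAC replicate 3 (-0.15) and in a fit of only the 6 control and FAC libraries (-0.17), and 63.5% of its exonic length overlaps another annotated gene. Hpx, which encodes the heme carrier hemopexin, fell by 0.20 and lost its call without control replicate 2 (-0.17), without FAC replicate 3 (-0.15) and in the fit of 6 libraries (-0.18). Gc, which encodes the vitamin D carrier, fell by 0.16 and lost its call without any 1 library other than control replicate 1 (-0.12, -0.16, -0.17, -0.16 and -0.13 in order of replicate, control first), in the fit of 6 libraries (-0.14), with RLE scaling (-0.14) and after thinning to equal depth (-0.14).

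Among protein-coding genes at 5 CPM or more without overlap between the groups, heme oxygenase 1 (Hmox1, ENSMUSG00000005413, GRCm38 chromosome 8, 75093621 to 75100589, + strand) rose most. Its level was 341, 284 and 269.6 CPM in the control libraries and 2595, 2580.0 and 2504 CPM in the FAC libraries, which gave a log2 fold change of 3.10 with an SE of 0.09 and an adjusted p of 7.2e-12 in edgeR. Each FAC library was far above each control library. The next largest rises were those of the MAP kinase phosphatase Dusp4 (2.68), the sphingosine kinase Sphk1 (2.39), the EGFR ligand Areg (2.34) and the immediate early factor Egr1 (2.24). Cxcl10, Igfbp1, Cxcl1, Cldn4, Slc7a11, Sfn, Abcc1, Emp1, Cachd1 and Dusp5 followed with log2 fold changes from 2.21 to 1.80. The sialidase gene Neu3 (ENSMUSG00000035239, GRCm38 chromosome 7, 99811439 to 99828417, - strand) fell most, with 20.3, 18.4 and 16.2 CPM in the control libraries and 1.90, 2.47 and 2.02 CPM in the FAC libraries and a log2 change of -3.08 with an SE of 0.16 and an adjusted p of 2.5e-10 in edgeR. It was followed by the zinc finger gene Zfp970 (-2.69), Aldh8a1 of the kynurenine pathway (-2.55), the lipolysis inhibitor G0s2 (-2.42) and the acyl transferase Acnat2 (-2.25). Atoh8, Arhgef19, Tbx3, Sdr9c7, Steap4, Tgtp1, Spon2, Rtn4rl1 and Etfbkmt were also among the 15 largest falls, from -2.02 to -1.73. The 10 smallest adjusted p-values belonged to Hmox1, Slc7a11 and Slc40a1 among the rises and to Spon2, Aldh8a1, Glyctk, Nr1h4, Baat, Fmo5 and Acnat2 among the falls. Tgtp1 has a near-identical copy, Tgtp2, and Zfp970 shares 96.4% of 897 bases with Zfp965, so that their counts are uncertain. Transcripts over 95% identical to another gene also make the counts of Acot1, Ccnb1, Gpx4, Gstm1, Gstp1, Hspb1, Hspd1, Isg15, Ldha, Me1, Phgdh, Rps10 and Sfn uncertain, and overlapping genes those of Dusp5, Hmox2, Jund, Mt2, Phlda1 and Sephs2.

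The genes were then read by function, through 70 lists of genes written by hand that cover the liver's functions and stress responses. Where a list's shares lie near 17.5% higher and 19.1% lower, its counts are those of the background and are no result about its members.

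**Figure D2:**
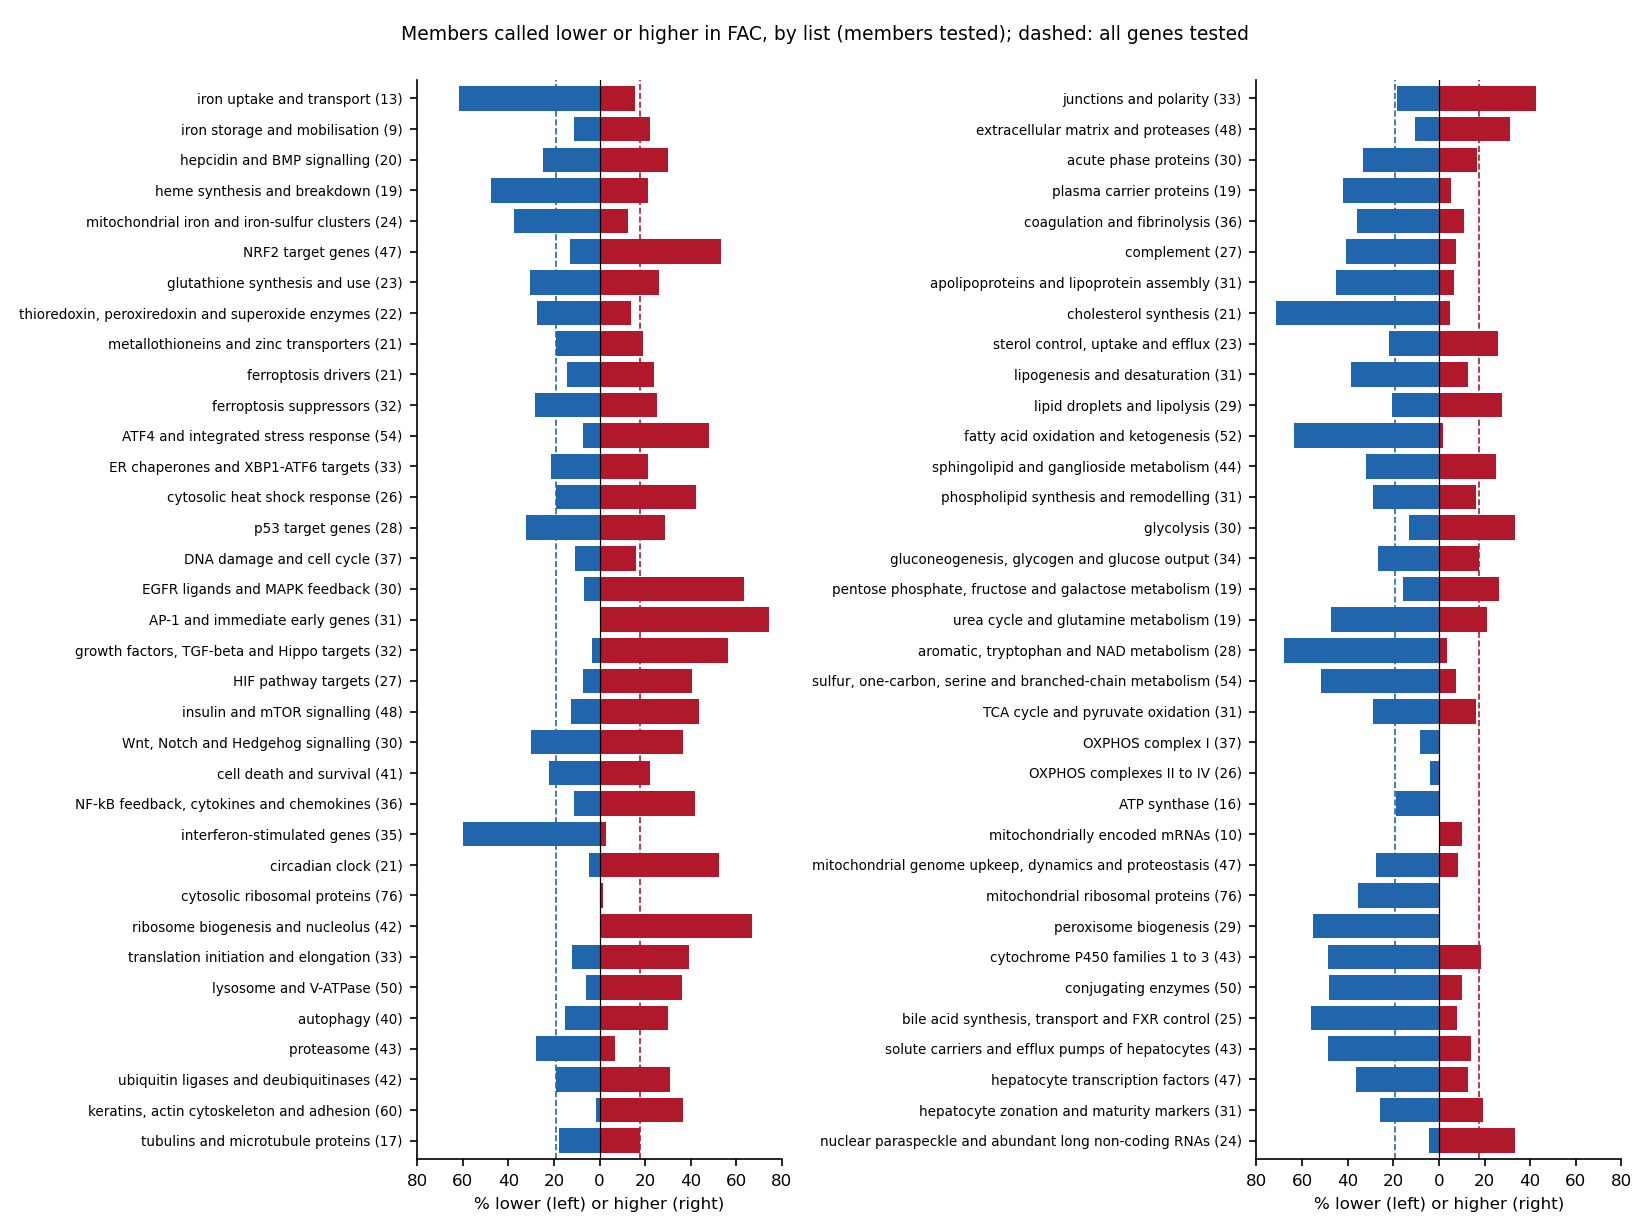
Share of the tested members of each of the 70 lists called higher (red, right) or lower (blue, left) in FAC, in percent, with the number of members tested in brackets and dashed lines at the shares for all genes tested (17.5% higher, 19.1% lower). AP-1, ribosome biogenesis and EGFR lists extend to the right, and cholesterol synthesis, aromatic amino acid, fatty acid oxidation, iron uptake and interferon lists to the left.

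Iron-responsive elements are shown first, because ferritin, ferroportin and the transferrin receptor carry them and moved differently. The search was for a 5-base-pair stem with an unpaired C below a loop of CAGTG and then A, C or T (G-T pairs allowed). Genes of a single chromosome were left out of the counts that follow, so these do not cover all genes tested. A match was found in the 5′ UTR of 17 tested genes and in the 3′ UTR of 80. Of these, 7 (41.2%) and 17 (21.2%) were called higher and 2 (11.8%) and 16 (20%) lower, against 17.5% and 19.1% of all genes tested. The shares for the 3′ UTR are near those of all genes. The higher 5′ UTR genes include a pseudogene of Ftl1 with the same site letters, 99.6% identical to Ftl1 over 910 bases. A match of these letters is a description of the sequence, not evidence of protein binding. Sites are written 5′ to 3′ from GENCODE M21 transcripts (GRCm38), with the loop in capitals.
Fth1, 5′ UTR: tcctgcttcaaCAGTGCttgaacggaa
Ftl1, 5′ UTR: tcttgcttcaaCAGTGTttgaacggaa
Slc40a1, 5′ UTR: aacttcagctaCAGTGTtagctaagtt
Tfrc, 3′ UTR, match 1: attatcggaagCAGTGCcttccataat
Tfrc, 3′ UTR, match 2: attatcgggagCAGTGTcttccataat
Tfrc, 3′ UTR, match 3: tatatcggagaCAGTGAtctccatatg
Tfrc, 3′ UTR, match 4: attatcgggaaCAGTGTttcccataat

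Ferroportin rose and the transferrin receptor fell. Slc40a1, which encodes ferroportin (ENSMUSG00000025993, GRCm38 chromosome 1, 45908068 to 45926523, - strand), was at 606, 592 and 611 CPM in the control libraries and 1361, 1357 and 1214 CPM in the FAC libraries, which gave a log2 fold change of 1.12 with an SE of 0.05 and an adjusted p of 1.12e-10 in edgeR. Tfrc, which encodes transferrin receptor 1 (ENSMUSG00000022797, GRCm38 chromosome 16, 32608920 to 32632794, + strand), was at 73.99, 65.2 and 59.6 CPM in the control libraries and 27.8, 25.9 and 20.2 CPM in the FAC libraries, which gave a log2 fold change of -1.42 with an SE of 0.12 and an adjusted p of 7.63e-08 in edgeR. The groups did not overlap for either gene. Ferritin heavy chain Fth1 was at 3969, 3432 and 4010.3 CPM in the control libraries and 5552, 5138 and 5349 CPM in the FAC libraries (0.49), whereas the light chain Ftl1 was at 929.9, 797 and 1390.2 CPM in control and 1364, 1198 and 1521 CPM in FAC, with overlapping groups, and was not called (0.39, adjusted p = 0.296). Ftl1 has several near-identical pseudogenes, and reads that fit more than 1 place count for no gene in these files. The cytosolic aconitase Aco1, which without its iron-sulfur cluster is iron regulatory protein 1, fell by 0.32. The other iron regulatory protein, Ireb2 (0.10), its ubiquitin ligase adaptor Fbxl5 (-0.02) and the ferritinophagy receptor Ncoa4 (0.03) were not called.

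Of the iron uptake and transport list, 2 of 13 tested members were higher and 8 lower (median -0.29). The metalloreductase Steap4 fell from 54.7 to 14.7 CPM, the ferritin receptor Scara5 from 5.43 to 1.77 CPM and the ferroxidase ceruloplasmin, Cp, from 3329.7 to 1998 CPM, whereas the scavenging receptor Lrp1 rose from 70.8 to 95.4 CPM. Tfr2, the hepatocyte's iron-sensing transferrin receptor, had nearly equal means (255 and 254 CPM). In the hepcidin and BMP list, 6 of 20 members were higher and 5 lower. Hamp, which encodes the iron hormone hepcidin, was at 46.1, 30.9 and 55.9 CPM in the control libraries and 24.5, 17.8 and 33.6 CPM in the FAC libraries, with overlapping groups and a log2 fold change of -0.82. The call for Hamp (adjusted p = 0.0184) was lost without control replicate 3 (-0.62), without FAC replicate 1 (-0.80) and in the fit of only the 6 control and FAC libraries (-0.80). The hemojuvelin gene, listed as Hfe2 and encoding a BMP co-receptor needed for hepcidin expression, fell from 32.6 to 10.97 CPM, and Atoh8 and Id2, which BMP signals induce, fell by 2.02 and 1.00. The hemojuvelin-binding receptor Neo1 rose from 42.03 to 69.9 CPM and the activin receptor Acvr2a from 36.3 to 47.5 CPM. Id1 (-0.18), Smad7 (-0.10) and the hemojuvelin protease Tmprss6 (0.04) were not called. Without control replicate 3, and in the fit of 6 libraries, 3 members in place of 6 were called higher.

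In the heme list, 4 of 19 members were higher and 9 lower (median -0.16). Besides Hmox1, the lysosomal heme transporter Slc48a1 rose from 301 to 529.6 CPM and Bach1, the heme-sensing repressor of Hmox1, rose from 7.37 to 16.3 CPM. Alad and Uros, enzymes of heme synthesis, fell by 0.50 and 0.47, Hmox2 fell by 0.50 and Hp, the carrier of free hemoglobin, fell from 4110.0 to 2417 CPM. Fech, the last enzyme of heme synthesis, was not called (-0.13). Of 24 genes for mitochondrial iron and iron-sulfur clusters, 3 were higher and 9 lower. The mitochondrial iron importer mitoferrin 1, Slc25a37, rose from 13.4 to 20.5 CPM, the serine carrier Sfxn1 fell from 177 to 112 CPM and the cluster assembly factor Isca2 fell from 62.1 to 50.05 CPM. In this list 1 member was higher without control replicate 2 or FAC replicate 2 or with upper-quartile scaling, and 4 were lower without FAC replicate 1. Of 21 metallothionein and zinc transporter genes, 4 were higher and 4 lower (19% each), and 2 were lower without control replicate 2. Metallothionein 1 (Mt1) rose with 2123, 1598 and 2361 CPM in the control libraries and 3329, 3577 and 3545 CPM in the FAC libraries, and the zinc exporters Slc30a4 and Slc30a1 rose by 1.11 and 0.80. The manganese exporter Slc30a10 fell by 0.75 and the importer of zinc and iron Slc39a14 by 0.29. Mt2 was not called at 0.74 (adjusted p = 0.24).

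Many NRF2 target genes rose. Of 47 tested members, 25 (53.2%, against 17.5% of all genes tested) were higher and 6 lower, with a median log2 fold change of 0.39. Slc7a11, the cystine importer that feeds glutathione synthesis, was at 12.3, 12.9 and 14.9 CPM in the control libraries and 49.5, 50.5 and 55.5 CPM in the FAC libraries (1.96, SE 0.09). The efflux pump Abcc1 rose from 2.75 to 10.1 CPM, the growth inhibitor Osgin1 from 434 to 984 CPM, Gclm, the regulatory partner of Gclc, from 340.2 to 518 CPM, sulfiredoxin Srxn1 from 516 to 916 CPM and thioredoxin reductase Txnrd1 from 675 to 1106 CPM. The quinone reductase Nqo1 was at 7.01, 10.9 and 9.35 CPM in control and 11.9, 12.7 and 12.1 CPM in FAC (0.43) and lost its call without control replicate 1 (0.28), and Keap1, which marks NRF2 for degradation, was not called (-0.05). Nfe2l2, which encodes NRF2 itself, fell from 209.7 to 171 CPM, as did the transferases Mgst1 and Gsta3 by 0.49 and 0.45. Without control replicate 3 the lower count was 3.

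The promoters of 2 higher members are printed because they hold the letters of the antioxidant response element, TGACNNNGC, searched on both strands of 300 bases around the start site (RefSeq, GRCm38.p6). The match, in capitals, reads as its reverse complement in both.
Txnrd1, chr10:82858956-82859255, plus strand: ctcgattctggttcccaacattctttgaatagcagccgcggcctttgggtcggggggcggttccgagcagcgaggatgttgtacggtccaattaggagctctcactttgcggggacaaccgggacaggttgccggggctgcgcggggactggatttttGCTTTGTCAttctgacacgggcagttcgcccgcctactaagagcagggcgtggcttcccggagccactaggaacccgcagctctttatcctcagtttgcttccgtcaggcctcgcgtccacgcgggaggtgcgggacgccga
Gclm, chr3:122245307-122245606, plus strand: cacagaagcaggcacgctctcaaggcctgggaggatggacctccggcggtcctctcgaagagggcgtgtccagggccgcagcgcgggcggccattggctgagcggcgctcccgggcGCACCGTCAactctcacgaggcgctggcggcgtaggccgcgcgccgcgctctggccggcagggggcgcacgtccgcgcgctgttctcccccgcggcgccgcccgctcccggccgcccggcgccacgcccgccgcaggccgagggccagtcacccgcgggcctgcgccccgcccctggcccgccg

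These letters were present in 13 of the 41 NRF2-list genes with a promoter entry (31.7%) and in 17% of the 9869 tested genes that had one. Other lists had shares of 27.9% (ATF4), 26.1% (AP-1) and 25% (cholesterol synthesis), and the difference from the NRF2 list was not tested. Across all tested genes with an entry, they were in 19.7% of the promoters of genes called higher, 16.6% of those called lower and 16.3% of those not called. Of the 13 with a match, 8 were higher and 3 lower, and of the 28 without, 11 were higher and 3 lower.

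Of 23 members of the glutathione list, 6 were higher and 7 lower. Slc7a11, Gclc and Gclm for cystine uptake and glutathione synthesis rose, as did the glutathione-degrading enzyme Chac1 (from 34.99 to 64.01 CPM). Bhmt and Bhmt2, which return homocysteine to methionine, and Mat1a, which turns methionine into S-adenosylmethionine, fell by 1.20, 1.01 and 0.58. Of the enzymes that make cysteine from homocysteine, named after their values were seen, Cbs fell by 0.39 and Cth was not called (-0.0019), and glutaredoxin Glrx fell by 0.76. Glutathione peroxidases Gpx1 (-0.12) and Gpx4 (-0.10) were not called. In the list of thioredoxin, peroxiredoxin and superoxide enzymes, 3 of 22 were higher and 6 lower. Txnrd1, Srxn1 and Txnrd3 were the members that rose, whereas mitochondrial peroxiredoxin Prdx3, the copper chaperone Ccs and methionine sulfoxide reductase Msrb2 fell by 0.28, 0.34 and 0.92. Sod1 (0.12), Sod2 (-0.04) and catalase, Cat (0.07), were not called.

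Among ferroptosis drivers, 5 of 21 were higher (23.8%) and 3 lower (14.3%, median 0.03), with 8 higher without a filter on low counts. Among suppressors 8 of 32 were higher (25%) and 9 lower (28.1%, median -0.06), against 17.5% and 19.1% of all genes. The higher drivers included the polyamine acetyltransferase Sat1, at 2127, 2211 and 2196 CPM in the control libraries and 3562, 3258 and 2823 CPM in the FAC libraries, and the electron donors Por (0.40) and Cyb5r1 (0.43). Acsl4 (0.10) and Lpcat3 (-0.09), which place polyunsaturated chains in phospholipids, were not called. The higher suppressors included the small heat shock protein Hspb1 (from 157 to 247 CPM) and Gch1 of tetrahydrobiopterin synthesis (from 256 to 373 CPM). Lower suppressors included the selenium enzyme Sephs2 (-0.51) and the desaturase Scd2 (-1.01). The lower count also holds Dhcr7 (-0.84), which does not do what the list's name says, as it uses up a sterol that is known to protect lipids from peroxidation. Gpx4, which reduces lipid peroxides, was at 362, 373 and 412 CPM in the control libraries and 343, 354 and 371 CPM in the FAC libraries, and its groups overlapped.

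**Figure D3:**
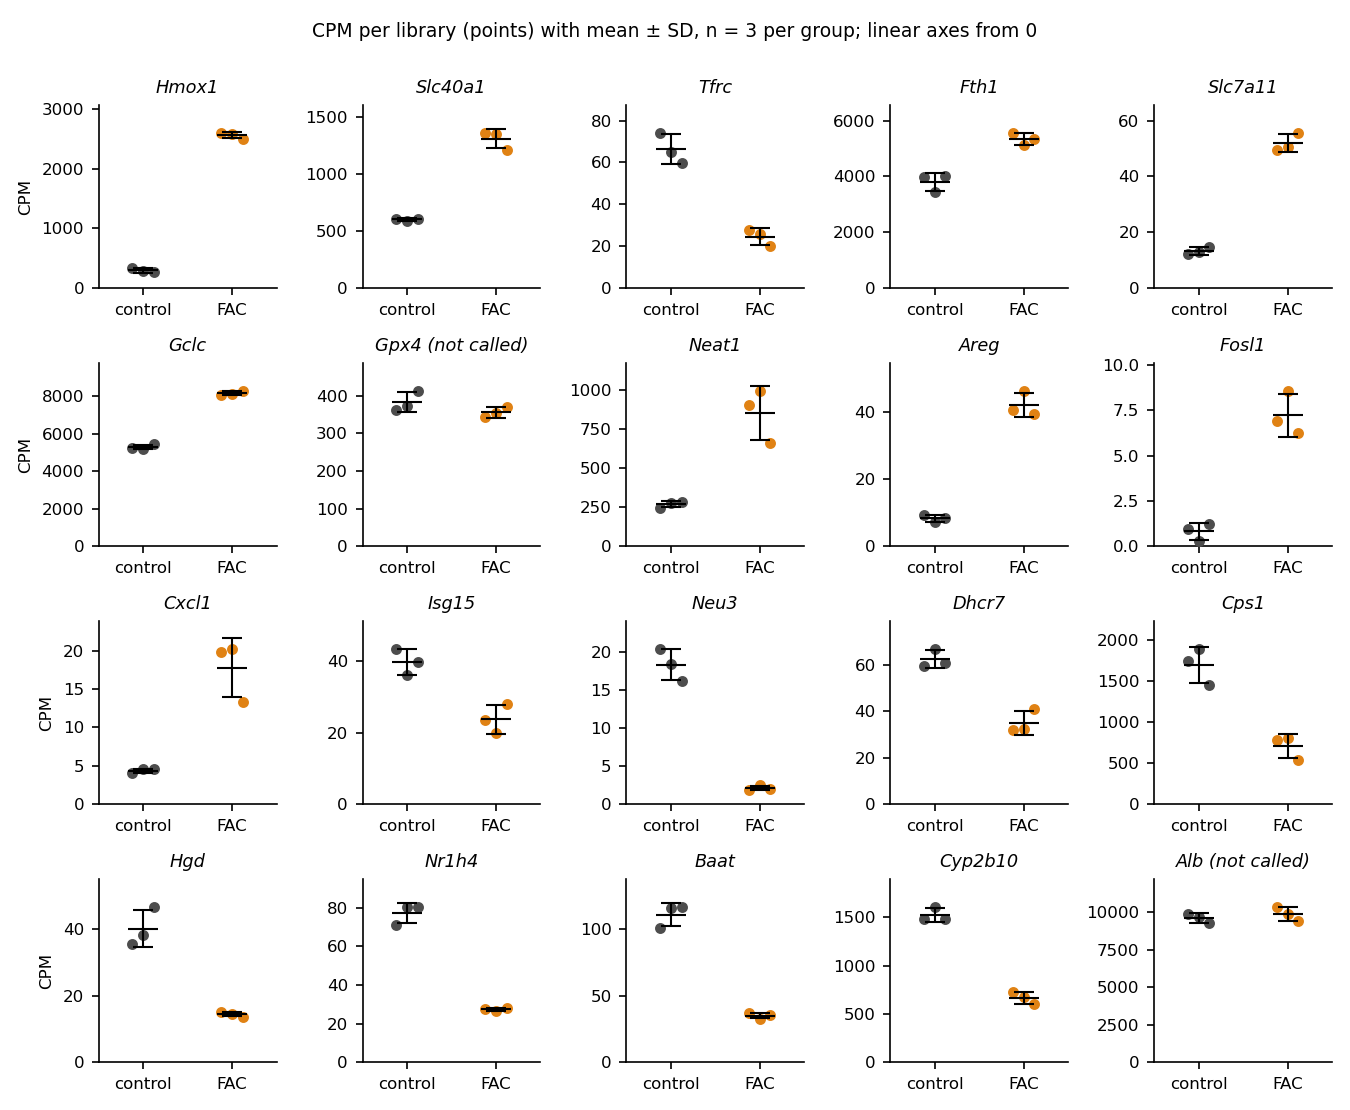
CPM in each library for 20 genes (points), with the mean and SD of the 3 libraries per group (bars) on linear axes from 0. Hmox1, Slc40a1, Slc7a11, Areg and Fosl1 are higher in all FAC libraries, Tfrc, Isg15, Neu3, Cps1, Nr1h4 and Baat are lower in all of them, and the groups overlap for Gpx4 and Alb.

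ATF4, the effector of the integrated stress response, is made when translation initiation is restrained and induces amino acid import and synthesis genes. Of 54 members of its list, 26 were higher (48.1%) and 4 lower (median 0.20). The stress factor Ddit3 rose from 10.2 to 21.5 CPM, the arginine importer Slc7a1 from 8.94 to 18.7 CPM and the cell death gene Bbc3 from 10.7 to 22.1 CPM. With both stranded columns summed, the change in Ddit3 was 0.56 in place of 1.07. Asparagine synthetase Asns (-0.00), Phgdh (-0.04) and Psat1 (0.18), the classical synthesis enzymes of this response, were not called, and the transaminase Gpt2 fell from 1977 to 1227 CPM. Of 33 chaperone and regulator genes of the endoplasmic reticulum, 7 were higher and 7 lower (21.2% each, near the shares of all genes). Dnajb9, the sensors Ern1 and Atf6 and the CREB3 regulator Crebrf rose by 0.73, 0.62, 0.53 and 0.98, while Pdia4, Herpud1 and Creld2 fell by 0.52, 0.45 and 0.42. Calr (-0.07) and Canx (0.01) were not called.

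In the cytosolic heat shock list, 11 of 26 members were higher and 5 lower. Hspa1b was at 10.3, 7.32 and 9.75 CPM in the control libraries and 22.3, 27.96 and 18.1 CPM in the FAC libraries and its near-identical neighbour Hspa1a rose from 0.979 to 3.24 CPM. The constitutive chaperone Hsp90ab1 (0.10) and the mitochondrial chaperonin Hspd1 (-0.07), which is also in the list, were not called, and the cochaperones Dnaja1 and Chordc1 fell by 0.27 and 0.29. The count of lower members was 3 without any one of control replicates 1, 2 and 3 and FAC replicate 2, and also with RLE scaling, with DESeq2, without a filter on low counts, with the stranded counts summed, after thinning and in the fit of 6 libraries.

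Of 28 targets of the tumour suppressor p53, 8 were higher and 9 lower (median -0.06). Plk3, Plk2 and the p53 antagonist Mdm2 rose by 1.28, 0.80 and 0.84, whereas Phlda3, Fas and Sesn1 fell by 1.34, 1.19 and 0.60. The cell cycle inhibitor Cdkn1a (0.12) and the death effector Bax (0.11) were not called. Among cell death and survival genes, 9 of 41 were higher and 9 lower (22% each). The BH3-only genes Hrk and Bbc3 and the protective genes Bcl2l1 and Cflar rose by 1.99, 1.05, 0.61 and 0.55, and the BH3-only gene Bmf, the effector Bok and the receptor Fas fell by 1.26, 0.83 and 1.19. Most genes of DNA replication and division were not called, 6 of 37 being higher and 4 lower. Myc was at 112, 117 and 125 CPM in the control libraries and 266, 297 and 226 CPM in the FAC libraries, the inhibitor Cdkn2b rose from 2.48 to 7.57 CPM and the replication helicase subunit Mcm6 rose from 66.95 to 112 CPM. Brca1, Tyms and Rrm1 fell by 0.83, 0.64 and 0.58. The mitotic genes Cdk1 (2.22 CPM in FAC) and Ccnb1 (0.237 CPM) were scarce and not called.

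AP-1 and immediate early genes had the highest share of higher members among the 70 lists. AP-1 is a dimer of FOS and JUN proteins that is induced within minutes of growth factor or stress signals. Of 31 AP-1 and immediate early genes, 23 were higher (74.2%) and 0 lower, with a median log2 fold change of 0.835. Egr1 was at 18.8, 19.8 and 20.5 CPM in the control libraries and 90.8, 102 and 86.8 CPM in the FAC libraries, and its groups were well apart. Fosl1 was at 0.940, 0.300 and 1.22 CPM in the control libraries and 6.91, 8.56 and 6.26 CPM in the FAC libraries (3.15). 57.2% of the exonic length of Fosl1 overlaps a neighbouring gene. Fosb rose from 0.256 to 1.87 CPM and Klf4 from 0.988 to 4.38 CPM. Srf (0.11) and Jund (0.18) were not called.

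Of 30 EGFR ligands, receptors and MAP kinase feedback genes, 19 were higher and 2 lower (median 0.59), with 1 lower without control replicate 1, control replicate 2, FAC replicate 1 or FAC replicate 3, with RLE scaling or DESeq2 and in the fit of 6 libraries. Amphiregulin, Areg, was at 9.31, 7.17 and 8.52 CPM in the control libraries and 40.6, 46.1 and 39.2 CPM in the FAC libraries (2.34, SE 0.12). The MAP kinase phosphatases Dusp4 and Dusp5 and the feedback gene Phlda1 rose from 6.06 to 38.8 CPM, from 7.09 to 24.6 CPM and from 4.75 to 14.2 CPM. Erbb3 fell from 99.8 to 69.8 CPM, and the EGFR inhibitor Errfi1 was abundant and not called (2063 and 1998 CPM). Growth factors and targets of TGF-beta and Hippo signalling were higher in 18 of 32 and lower in 1 (median 0.45). Igfbp1, an insulin-like growth factor binding protein, was at 184, 122 and 189 CPM in the control libraries and 682, 701 and 629 CPM in the FAC libraries. Placental growth factor Pgf, thrombospondin Thbs1 and Tgfb1 rose from 109.9 to 322 CPM, from 27.3 to 82.01 CPM and from 0.641 to 1.91 CPM, and Igfbp4 was the member that fell (from 188 to 108 CPM), with a second one called lower without FAC replicate 2. Hypoxia targets were higher in 11 and lower in 2 of 27 (1 lower without control replicate 1 or FAC replicate 2 or at a mean CPM of at least 5), with adrenomedullin Adm, Egln3, the glucose transporter Slc2a1 and Ndrg1 rising by 1.07, 0.94, 0.90 and 0.89. Ldha, of lactate formation, was not called (0.02), and Angptl4 fell by 0.99.

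Among genes of insulin and mTOR signalling, 21 of 48 were higher and 6 lower. Fnip1 and Rictor rose by 0.81 and 0.70, the insulin receptor gene Insr rose by 0.46, and the inhibitors Grb14 and Deptor fell by 0.75 and 0.66. Akt1 (0.05) and Rptor (0.03) were not called. Of Wnt, Notch and Hedgehog genes, 11 of 30 tested were higher and 9 lower, while 18 were too low to test. The Notch ligand Jag1 and the Notch target Hes1 rose from 4.19 to 11.04 CPM and from 4.54 to 9.40 CPM, and the Hedgehog transducer Smo and the Wnt regulators Rnf43 and Lgr4 fell by 0.82, 0.70 and 0.55.

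The chemokine genes Cxcl1, Cxcl2 and Cxcl10 rose, whereas 21 of 35 interferon-stimulated genes fell. Of 36 genes for NF-kB feedback, cytokines and chemokines, 15 were higher and 4 lower (median 0.38). The neutrophil chemokine Cxcl1 was at 4.06, 4.54 and 4.54 CPM in the control libraries and 19.8, 20.2 and 13.4 CPM in the FAC libraries, Cxcl2 at 0.299, 0.150 and 0.276 CPM in control and 6.72, 6.61 and 3.23 CPM in FAC, and Cxcl10 at 2.78, 2.18 and 2.80 CPM in control and 13.3, 11.97 and 10.6 CPM in FAC. All 3 were higher in each FAC library than in any control library. The receptor antagonist Il1rn rose from 0.970 to 2.27 CPM and the receptor Il1r1 fell from 21.8 to 9.56 CPM. Rela (0.10), the inhibitor Nfkbia (0.15) and the abundant Lcn2 (0.01) were not called.

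Of 35 interferon-stimulated genes, 1 was higher and 21 were lower (60%, median -0.38). The immunoproteasome subunit Psmb9 fell from 5.94 to 2.93 CPM, the RNA sensor Ddx58 from 57.8 to 30.4 CPM, Ifit1 from 19.8 to 10.7 CPM and the peptide transporter Tap1 from 32.4 to 17.8 CPM. Isg15, which encodes a ubiquitin-like protein, shown because its promoter holds several matches and picked after its value was seen, was at 43.3, 36.2 and 39.7 CPM in the control libraries and 23.5, 19.9 and 27.9 CPM in the FAC libraries (-0.75). Socs2, a feedback inhibitor of growth hormone signalling, was the member that rose (from 15.4 to 22.6 CPM), with a second one called higher without control replicate 3, with the stranded counts summed or after thinning, and Cxcl10, which interferon also induces, rose as given above. The class I genes H2-D1 (0.02), H2-K1 (0.07) and B2m (-0.14) were not called.

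The interferon-stimulated response element was searched as TTTC, any 2 bases and TTTC on both strands of the same windows. Matches are in capitals, and in Isg15 3 matches on the opposite strand overlap.
Isg15, chr4:156200769-156201068, minus strand: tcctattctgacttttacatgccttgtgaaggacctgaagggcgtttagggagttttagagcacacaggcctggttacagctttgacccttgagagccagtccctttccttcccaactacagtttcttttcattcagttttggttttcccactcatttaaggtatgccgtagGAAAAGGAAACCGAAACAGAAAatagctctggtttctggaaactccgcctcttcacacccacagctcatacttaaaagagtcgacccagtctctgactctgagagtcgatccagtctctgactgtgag
Ifit1, chr19:34640639-34640938, plus strand: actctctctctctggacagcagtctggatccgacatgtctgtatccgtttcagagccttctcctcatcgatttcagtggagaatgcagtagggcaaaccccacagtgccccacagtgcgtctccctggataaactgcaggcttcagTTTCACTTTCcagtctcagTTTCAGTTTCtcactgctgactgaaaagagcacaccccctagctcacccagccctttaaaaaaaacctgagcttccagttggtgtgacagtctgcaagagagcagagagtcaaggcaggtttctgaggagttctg

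The letters were found in 15 of the 31 list members with a promoter entry (48.4%) and in 3.59% of tested genes. Of the 15 with a match, 10 were lower and none was higher, and of the 16 without, 9 were lower. Across all tested genes with an entry, the letters were in 4.77% of the promoters of genes called lower, 2.78% of those called higher and 3.44% of those not called.

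**Figure D4:**
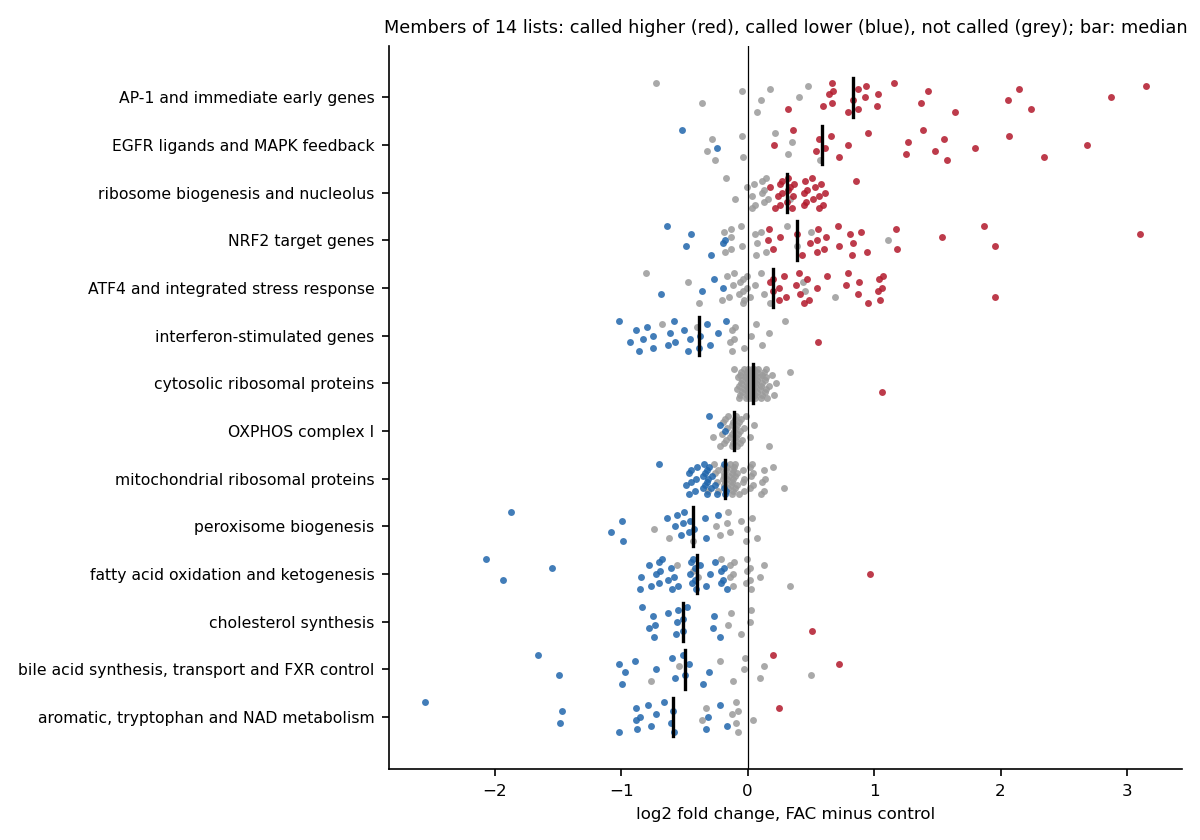
Log2 fold change of each tested member of 14 lists (x axis, FAC minus control), coloured by call, with the median of each list as a black bar. Medians run from 0.835 for AP-1 and immediate early genes to -0.59 for aromatic, tryptophan and NAD metabolism, and the 76 cytosolic ribosomal protein genes cluster at 0.

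In the list for phenylalanine, tyrosine, tryptophan and NAD metabolism, 1 of 28 members was higher and 19 lower (67.9%, median -0.59). Aldh8a1 was at 65.8, 61.03 and 62.5 CPM in the control libraries and 11.03, 10.5 and 10.8 CPM in the FAC libraries (-2.55, SE 0.11). Homogentisate dioxygenase Hgd was at 35.5, 38.2 and 46.4 CPM in the control libraries and 14.9, 14.4 and 13.7 CPM in the FAC libraries, and kynureninase Kynu fell from 34.3 to 12.4 CPM. Naprt, which makes NAD from nicotinic acid, fell from 41.6 to 20.5 CPM, and Nampt, which makes it from nicotinamide, rose by 0.25, a call lost without control replicate 3 (0.18), which left no member called higher. Fah (-0.09) and Hpd (-0.09) of tyrosine breakdown were not called. In the sulfur, one-carbon, serine and branched-chain list, 4 of 54 members were higher and 28 lower (median -0.28). Bcat2 fell from 9.26 to 2.95 CPM and Csad of taurine synthesis from 43.5 to 18.5 CPM, while the mitochondrial folate enzymes Shmt2, Mthfd1l and Aldh1l2 rose by 0.30, 0.40 and 0.43.

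The entry step of the urea cycle, which disposes of ammonia, fell. Carbamoyl phosphate synthetase Cps1 was at 1742, 1890.1 and 1454 CPM in the control libraries and 785, 806 and 543 CPM in the FAC libraries (-1.25, SE 0.16). Its activator synthase Nags fell from 69.4 to 36.8 CPM and arginase Arg1 from 466 to 242 CPM. Of the enzymes between them, Otc (0.12) and Ass1 (0.03) were not called, and Asl, named after its value was seen, fell by 0.28. Ass1 has a near-identical pseudogene. The glutamine importer Slc38a2 rose from 306 to 447 CPM. In the whole list 4 of 19 members were higher and 9 lower.

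Many fatty acid oxidation and peroxisome genes fell. Of 52 oxidation and ketogenesis genes, 1 was higher and 33 lower (63.5%, median -0.40). The fatty acid transporter Slc27a2, the pantetheinase Vnn1 and the thioesterase Acot1 fell by 0.84, 0.85 and 1.55. The member that rose was the pyruvate dehydrogenase kinase Pdk4 (from 14.8 to 29.05 CPM), and a second one was called higher without control replicate 1 or FAC replicate 3, with DESeq2, without a filter on low counts or with the stranded counts summed. Acadm (-0.00), Acadl (0.03) and the regulator Ppara (-0.21) were not called. Of 29 peroxisome genes none was higher and 16 were lower (median -0.43). Pxmp4, Amacr and Hao1 fell from 44.8 to 21.1 CPM, from 17.3 to 8.74 CPM and from 49.6 to 25.04 CPM, while the import receptor Pex5 (0.04) was not called.

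Cholesterol synthesis had the highest share of lower members of any list, 15 of 21 (71.4%, median -0.51), with 1 higher. Dhcr7, the last step of the pathway, was at 59.5, 66.7 and 60.8 CPM in the control libraries and 31.8, 32.3 and 41.02 CPM in the FAC libraries (-0.84). Idi1 and Mvd, which act early in the pathway, fell from 38.4 to 22.97 CPM and from 18.6 to 11.1 CPM. Srebf2, a transcriptional regulator of the pathway, was not called (0.03). The member that rose was Ggps1, which makes geranylgeranyl groups for proteins (from 16.6 to 23.6 CPM). Of the sterol control list 6 of 23 were higher and 5 lower, with the lysosomal cholesterol exporter Npc1 up by 0.44 and the sterol pumps Abcg5 and Abcg8 down, at -0.95 and -0.78.

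Of 31 lipogenesis genes 4 were higher and 12 lower, and 7 were higher without a filter on low counts or in the fit of only the 6 control and FAC libraries. Lpin1, Agpat2 and Acsl1 fell by 0.93, 0.64 and 0.56, and Acsl3, Lpin2 and Me1 rose by 0.47, 0.41 and 0.26. Fasn (0.11), Scd1 (0.24) and Srebf1 (0.15) were not called. Among lipid droplet genes, 8 of 29 were higher and 6 lower. G0s2 and Hilpda, which both restrain the lipase ATGL, moved apart, G0s2 falling from 8.44 to 1.57 CPM and Hilpda rising from 42.9 to 79.2 CPM. The droplet coat gene Plin5 and the monoacylglycerol lipase Mgll fell from 82.2 to 34.6 CPM and from 32.9 to 15.6 CPM. In sphingolipid metabolism, 11 of 44 were higher and 14 lower. Sphk1 was at 2.52, 1.39 and 2.37 CPM in the control libraries and 10.7, 11.4 and 10.7 CPM in the FAC libraries and the sphingomyelin synthase Sgms2 rose from 81.5 to 193 CPM, whereas the neutral sphingomyelinase Smpd3 and the ganglioside synthase St3gal5 fell from 23.7 to 7.57 CPM and from 234 to 121 CPM. Phospholipid genes were higher in 5 and lower in 9 of 31, with choline kinase Chka up by 0.61 and the lysophospholipase Pnpla7 down, at -0.72.

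The hexokinases Hk1 and Hk2, which carry out the first step of glycolysis in most tissues, rose. They were at 7.73, 5.70 and 6.43 CPM in control and 15.5, 17.1 and 27.2 CPM in FAC and at 3.72, 3.45 and 3.75 CPM in control and 7.75, 9.98 and 10.5 CPM in FAC. The bifunctional enzyme Pfkfb1 fell from 13.1 to 5.05 CPM. Of 30 glycolysis genes, 10 were higher and 4 lower, and without FAC replicate 3 the counts were 6 and 7. Genes of glucose output were higher in 6 and lower in 9 of 34. The gluconeogenic enzymes G6pc and Pck1 fell by 1.61 and 1.21, the glycogen genes Gys2 and Ppp1r3c fell by 0.92 and 1.13, and Pcx (0.11) was not called. In the pentose phosphate list, 5 of 19 were higher and 3 lower, and 3 were higher without control replicate 2 or FAC replicate 3. Pgd and G6pdx, its NADPH-producing dehydrogenases, rose from 298 to 532 CPM and from 73.99 to 109 CPM.

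Few nuclear genes of oxidative phosphorylation were called. Of 37 complex I genes 3 were lower (median -0.11), of 26 genes of complexes II to IV 1 was lower (median -0.07; 2 without FAC replicate 3 and 3 with upper-quartile scaling), and of 16 ATP synthase genes 3 were lower (median -0.14). None was higher in these lists. Complex I had 1 call without FAC replicate 2 or in the fit of 6 libraries, 5 without control replicate 2 and 7 without FAC replicate 3, and no ATP synthase gene was called without control replicate 1, control replicate 3 or FAC replicate 1 or in the fit of 6 libraries, and 1 without FAC replicate 2 or with RLE scaling. Mitochondrially encoded genes held 1.09% ± 0.13 of counts in control and 1.20% ± 0.0459 in FAC (SD, n = 3), and an exact two-sided permutation test gave p = 0.2, where 3 against 3 libraries allow no less than 0.1. mt-Co1 was the called member of 10 (0.21), and its call was lost without any 1 library other than control replicate 1 (0.13 without control replicate 2, 0.22 without control replicate 3 and 0.21, 0.23 and 0.22 without FAC replicates 1, 2 and 3) and with upper-quartile scaling (0.20). The annotated gene Gm13340 is 97.6% identical to mt-Co1. Mitochondrial ribosomal protein genes were lower in 27 of 76 (median -0.18) and higher in none, or in 2 without control replicate 3 and 1 with the stranded counts summed, with Mrps31 falling from 28.6 to 17.6 CPM and Mrpl49 from 40.3 to 28.9 CPM. Cytosolic ribosomal protein genes held 1.23% ± 0.112 of counts in control and 1.26% ± 0.0845 in FAC (SD, n = 3; exact two-sided permutation p = 0.8) and had 1 call among 76, Rps10 at 1.62 CPM in FAC, which was lost without control replicate 1 (0.94), control replicate 2 (0.81) or FAC replicate 2 (0.82) and in the fit of 6 libraries (1.08). Without control replicate 3, 3 were called higher, and 2 with RLE scaling, DESeq2 or thinning. In the TCA cycle list 5 of 31 were higher and 9 lower, with Idh2 and Idh3a falling by 0.57 and 0.37 and the pyruvate dehydrogenase kinases Pdk3 and Pdk1 rising by 1.00 and 0.36. Among genes of mitochondrial upkeep, 4 of 47 were higher and 13 lower, with 2 higher without control replicate 2, FAC replicate 1 or FAC replicate 2. The protease gene Lonp1 rose from 333 to 440.3 CPM, the coactivator Ppargc1a and the nucleotide carrier Slc25a4 fell from 11.6 to 7.94 CPM and from 39.3 to 27.8 CPM, and Tfam was not called (-0.14).

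Among the called genes of the lists for drug metabolism and bile acids, most were lower. Of 43 tested P450 genes of families 1 to 3 and their regulators, 8 were higher and 21 lower (median -0.30). Cyp2b10, the classical target of the receptor CAR, was at 1482, 1604 and 1484 CPM in the control libraries and 727, 679 and 605 CPM in the FAC libraries (-1.18). Cyp2c69 and Cyp2c38 fell from 20.8 to 6.58 CPM and from 28.4 to 9.68 CPM, and Cyp2c69 is over 95% identical to 3 neighbours. Cyp2s1, Cyp2a5 and the receptor gene Ahr rose from 12.4 to 26.9 CPM, from 433 to 626 CPM and from 101 to 139 CPM, and Cyp2a5 is 98.2% identical to Cyp2a4 over 1739 bases. The higher count was 5 without control replicate 3 or FAC replicate 3. Conjugating enzymes were higher in 5 and lower in 24 of 50 (median -0.23). The alpha-class transferases Gsta4, Gsta1 and Gsta2 rose by 0.94, 0.81 and 0.55, and Tpmt, Gstz1 and Gstm7 fell by 0.99, 0.85 and 0.65. Gsta1 and Gsta2 are near-identical copies, so that their counts are uncertain. The abundant Gstp1 (-0.13) and Gstm1 (-0.13) were not called.

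The bile acid receptor FXR, Nr1h4, was at 70.95, 80.1 and 80.1 CPM in the control libraries and 27.8, 26.6 and 27.9 CPM in the FAC libraries (-1.49, SE 0.07, edgeR adjusted p = 1.12e-10). Baat, which conjugates bile acids to amino acids, was at 101, 115 and 116 CPM in the control libraries and 36.6, 32.7 and 35.8 CPM in the FAC libraries (-1.66). Both were lower in each FAC library than in any control library. In the bile acid list, 2 of 25 tested members were higher and 14 lower (56%, median -0.49), and 5 were too low to test. Akr1d1 of bile acid synthesis fell from 9.37 to 4.61 CPM, and the canalicular pump Abcc2 and basolateral pump Abcc3 rose from 113 to 186 CPM and from 462 to 532 CPM. The FXR target Nr0b2 was close to the limit of testing at 0.873 and 0.503 CPM and not called. Among hepatocyte transporters, 6 of 43 were higher and 21 lower (median -0.34). The mitochondrial carrier Slc25a47 fell from 183 to 59.01 CPM and the urate transporter Slc2a9 by 1.19 on the log2 scale, and the taurine importer Slc6a6 rose from 237 to 334 CPM.

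Of 47 liver transcription factors, 17 were lower and 6 higher (median -0.24). Tbx3 fell from 22.8 to 6.04 CPM and Nr2f2 from 3.61 to 1.49 CPM. Sox9, a factor of bile duct and progenitor cells, rose with 19.7, 15.3 and 17.3 CPM in the control libraries and 49.2, 53.6 and 57.5 CPM in the FAC libraries, and Onecut2 rose from 46.3 to 73.1 CPM. Hnf4a (-0.27, adjusted p = 0.0681), Cebpa (0.05) and Foxa2 (0.15) were not called. The keratin Krt19, also typical of bile ducts, rose from 3.96 to 9.96 CPM. Among 8 tested cholangiocyte markers 4 were called higher and 1 lower, and whether bile duct cells took part in the rise of Sox9 and Krt19 was not tested. Zonation and maturity markers were higher in 6 and lower in 8 of 31, and Alb was at 9899.5, 9697 and 9277 CPM in the control libraries and 10336, 9901 and 9400.1 CPM in the FAC libraries, with overlapping groups.

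The share of counts from secreted liver protein genes was 17.8% ± 0.212 in control and 16.1% ± 0.374 in FAC (SD, n = 3), lower in all 3 FAC libraries, with an exact two-sided permutation p of 0.1, the smallest that 3 against 3 allow. Plasma carriers were higher in 1 and lower in 8 of 19, acute phase proteins in 5 and 10 of 30, coagulation factors in 4 and 13 of 36, complement genes in 2 and 11 of 27 and apolipoprotein genes in 2 and 14 of 31. The higher acute phase count was 1 without control replicate 2 or FAC replicate 3 and 2 without FAC replicate 1, and the higher carrier count was 0 without control replicate 2, FAC replicate 1 or FAC replicate 3 and 2 without FAC replicate 2, with RLE scaling or DESeq2 and without a filter on low counts. Without that filter 7 coagulation genes were higher. The thyroxine carrier Serpina7 was at 485, 581 and 595 CPM in the control libraries and 248, 227 and 195 CPM in the FAC libraries (-1.31). Haptoglobin, Hp, was at 3789, 4144 and 4398 CPM in the control libraries and 2584, 2534 and 2132 CPM in the FAC libraries (-0.77). Ceruloplasmin, Cp, was at 3051, 3626 and 3312 CPM in the control libraries and 2142, 2106 and 1745 CPM in the FAC libraries (-0.74). These 3 abundant genes were lower in each FAC library than in any control library. The endotoxin coreceptor Cd14 rose from 15.98 to 32.97 CPM, and amyloid components Saa4 and Apcs fell from 29.9 to 15.1 CPM and from 291 to 186 CPM. In coagulation, the inhibitors Serpind1 and Pros1 fell from 12.9 to 4.82 CPM and from 56.3 to 32.4 CPM, and the fibrinolysis genes Plaur and Plat rose by 1.14 and 1.59. Complement C6 and the lectin Mbl2 fell from 64.8 to 37.5 CPM and from 314 to 200.3 CPM, C8a rose from 70.5 to 93.8 CPM, and C3 (-0.11) was not called. Angptl4, an inhibitor of lipoprotein lipase, and Tm6sf2 of lipoprotein secretion fell by 0.99 and 0.86. The apolipoproteins Apoe (0.18) and Apoa1 (0.10) were not called.

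In the list of keratins, actin cytoskeleton and adhesion, 22 of 60 were higher and 1 lower (median 0.30), the lower count being 2 without control replicate 1 and with upper-quartile scaling, and 0 without control replicate 2 or any one of the FAC libraries, with RLE scaling, at a mean CPM of at least 5, with the stranded counts summed, after thinning and in the fit of 6 libraries. The scaffold Akap12 was at 68.5, 67.4 and 58.2 CPM in the control libraries and 200.5, 199.9 and 222 CPM in the FAC libraries and the keratin Krt18 at 2908, 3154 and 2979 CPM in control and 3602, 3949.8 and 4322 CPM in FAC. Flnc and Krt23 rose from 1.09 to 2.91 CPM and from 2.79 to 5.82 CPM, and Actn4 (-0.09) was not called. Of 17 tubulin and microtubule genes 3 were higher and 3 lower (17.6% each, near the shares of all genes; 5 higher without control replicate 3), and Tubb5 (0.14) was not called. Junction genes were higher in 14 and lower in 6 of 33. The tight junction gene Cldn4 was at 16.4, 15.3 and 16.1 CPM in the control libraries and 48.3, 56.4 and 86.4 CPM in the FAC libraries (2.00), and desmoplakin Dsp and E-cadherin Cdh1 rose by 0.58 and 0.49. The gap junction genes Gjb1 and Gjb2 and the tight junction gene Tjp3 fell by 0.54, 0.67 and 1.11. Matrix and protease genes were higher in 15 and lower in 5 of 48, with 10 too low to test, and the lower count was 3 without control replicate 1, FAC replicate 1 or FAC replicate 2. The collagen cross-linking enzyme Lox and laminins Lamc1 and Lamb3 rose from 23.6 to 65.9 CPM, from 105 to 219 CPM and from 1.97 to 4.24 CPM, the membrane protease Mmp14 fell from 128 to 71.7 CPM, and fibronectin Fn1 (0.18) was not called.

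Of 42 ribosome biogenesis genes, 28 were higher (66.7%) and 0 lower, with a median of 0.31. Rrp9 was at 25.5, 25.9 and 26.1 CPM in the control libraries and 45.2, 56.7 and 37.7 CPM in the FAC libraries, and Gnl3, Pwp2 and Nob1 rose by 0.61, 0.60 and 0.58. Initiation and elongation factors were higher in 13 and lower in 4 of 33, and the higher count was 8 without control replicate 1 or FAC replicate 1, with 2 lower without FAC replicate 1. Eif5 and Eif4a2 rose by 0.31 and 0.38, and the elongation factor kinase Eef2k fell by 0.79.

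Lysosome and V-ATPase genes were higher in 18 and lower in 3 of 50 (median 0.11), with the transcription factor Tfe3 and the pump subunits Atp6v1b2 and Atp6v1h rising from 66.2 to 99.1 CPM, from 117 to 158 CPM and from 164 to 219 CPM, and the acid lipase Lipa falling from 166 to 111 CPM. Lamp1 (-0.05) was not called. Autophagy genes were higher in 12 and lower in 6 of 40. The receptor Sqstm1 was at 2119.8, 2248 and 2381 CPM in the control libraries and 4301, 4424 and 3856 CPM in the FAC libraries (0.90), and 17.3% of its exonic length overlaps another gene. Atg2a rose from 90.2 to 154 CPM and Map1lc3b fell from 514 to 406 CPM. Proteasome genes were higher in 3 and lower in 12 of 43 (1 higher without control replicate 2 or FAC replicate 3), and the immunoproteasome subunits Psmb9 and Psmb10 fell by 1.02 and 0.65 while Psmd11 rose by 0.36. Of ubiquitin ligases and deubiquitinases 13 of 42 were higher and 8 lower. Otud1 rose from 29.9 to 60.3 CPM, and the clock-controlled Usp2 and the interferon-induced Usp18 fell from 11.9 to 4.01 CPM and from 215 to 140.7 CPM.

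Circadian clock genes were higher in 11 of 21 and lower in 1 (median 0.18). The repressor Nr1d1 and the period gene Per1 rose from 14.6 to 26.7 CPM and from 22.2 to 40.3 CPM, the kinase gene Csnk1e rose by 0.76, and the output factor Hlf fell from 8.76 to 3.42 CPM. The activator Arntl (-0.06) and Per2 (-0.06) were not called. Collection times of the cultures are not given in the sources used here.

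Of 927 long non-coding RNA genes, 76 were higher and 100 lower (19% called, against 36.6% of all genes), and those called had a median absolute change of 1.17. Neat1, the RNA scaffold of nuclear paraspeckles, was at 246, 276 and 283 CPM in the control libraries and 905, 991 and 661 CPM in the FAC libraries (1.67, SE 0.20). Each FAC library was above each control library. Mir17hg, host of a microRNA cluster, and Lncpint rose from 1.64 to 4.82 CPM and from 1.31 to 3.83 CPM. The largest falls were in the unnamed loci Gm10030 (-2.46), Gm38832 (-2.18) and Gm17753 (-2.15). Malat1 was at 50.6, 42.7 and 86.3 CPM in control and 133, 98.8 and 128 CPM in FAC (1.00), without overlap, and was not called (edgeR adjusted p = 0.0506). It was called without control replicate 3, with RLE scaling, with DESeq2, at a mean CPM of at least 5, with the stranded counts summed, after thinning and in the fit of 6 libraries. Zinc finger genes of the Zfp series numbered 318, of which 52 were higher and 69 lower (38.1%). Because the libraries carry no strand information, reads of antisense and overlapping genes cannot be told apart.

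A few genes were close to undetected in control and counted in all FAC libraries. With at most 3 counts in each control library and at least 10 in each FAC library, 8 genes met this rule and no gene met the reverse. Sprr1b, a cornified envelope gene of stressed epithelia, had no count in control and 15, 21 and 14 counts in FAC. Six4, a homeobox gene, had 0, 2 and 2 counts in control and 26, 38 and 21 in FAC. The others were Irx3, Gabbr1, Ncam1, Gm38158, Gm49628 and Gm17056.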

How the data were processed

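RNA was measured in 12 libraries made from 10 ng of total RNA by oligo-dT full-length cDNA amplification (SMART-Seq v4) and tagmentation (Nextera XT), per the labels' protocols. Counts cover PCR copies too, and levels of different genes are not compared per length. The submitters' processing notes name STAR and GRCm38, and the authors deposited read counts per gene. The unstranded counts were used, because 49.88 to 50% of stranded reads fell on 1 strand; the 4 rows for reads outside single genes were dropped. GENCODE M21 matched 55227 of 55487 identifiers, and the 260 others held 0.0021% of counts.

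Genes passing filterByExpr were scaled by TMM and tested with edgeR 4.0.16 (quasi-likelihood F test, robust, 4 group means over 12 libraries, FAC minus control, Benjamini-Hochberg adjustment over 13535 genes). CPM values are after TMM scaling, and means and SDs are over 3 libraries. Replicates differed by more than counting noise (chi-square per degree of freedom 9.82 to 19.9). The fit was also run on simulated data in which far fewer genes changed than were called here, and the outcome is not reported here. Alternatives used DESeq2 1.42.0 and other scalings, filters and library sets. Near-identical transcripts were found with blastn 2.17.0+ (at least 95% over 200 bases), and sequences came from GENCODE M21 and RefSeq (GRCm38.p6).

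Named genes were the 15 largest rises and falls among called protein-coding genes at 5 CPM or more without overlap, up to 4 called members per list and direction at 1 CPM or more, the 10 largest gains and losses of CPM, the 5 largest changes of long non-coding genes in each direction, the 10 smallest adjusted p-values, genes with at most 3 counts in each library of 1 group and at least 10 in each of the other, and uncalled genes that define a list; some that met a rule are left out for length or not reported here, and Isg15, Nqo1, Cbs, Cth and Asl were added after their values were seen. The members and gene lists were chosen with earlier results of these data known.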

Additional observations from a re-analysis of the deposited data

Results flagged for a closer look

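Reads that were mapped but assigned to no annotated exon, which no comparison above uses, made up 2.41% ± 0.146 of reads in control (2.27 to 2.56%) and 3% ± 0.124 in FAC (2.92 to 3.14%; SD, n = 3). Every FAC library was above every control library, and the exact two-sided permutation test gave its smallest possible p of 0.1. Genes with at least 1 read, with each library thinned to 22991598 counts, numbered 18536 ± 391 in control and 19160 ± 96.8 in FAC (p = 0.1, same exact test). Among 557 tested processed pseudogenes 53 were higher and 3 lower (10.1% called, against 36.6% of all genes; median 0.56). Whether these values moved the results above was not tested.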

How the results depend on the processing

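The number of called genes was 4956 with RLE scaling, 4975 with upper-quartile scaling, 4887 without a filter on low counts, 4264 at a mean CPM of at least 5, 5117 with DESeq2, 5369 with the stranded counts summed, 4818 after thinning to equal depth, 4331 with only the 6 libraries compared, and 4048 to 4803 when 1 library was left out. Of the called genes 47.8% were higher, and 44.8 to 51.9% under the alternatives. Calls with a change of 1 or more on the log2 scale numbered 261 in place of 760 at a mean CPM of at least 5, where fewer genes were tested. The share of counts in cytosolic ribosomal protein genes differed by 0.0268 percentage points (FAC minus control), and this ranged from -0.0335 (without control replicate 2) to 0.0776 when 1 library was left out, being also negative without FAC replicate 3 (-0.0207); the cause was not tested. The 377 genes named above gave 5984 values under alternatives, of which 5905 kept their side of the threshold, 45 lost the call and 34 gained one (8 for Malat1, 6 for Scd1, 4 for Hnf4a, 3 each for Mt2 and Psat1, 2 each for Fech, Ftl1 and Gstp1 and 1 each for C3, Nfkbia, Pcx and Tubb5). None of the named genes that were called took the other sign, whereas 93 values of 31 named genes that were not called did. Over all genes, 12 called genes took the other sign with the stranded counts summed, and 0 under each other alternative. Of 2240 counts of list members under alternatives, 125 differed from the first count by more than 1.5 times. Replicate numbers appear in each group without a stated meaning. Same-numbered control and FAC libraries correlated at -0.0129, 0.164 and 0.0578 in their deviations from the group means, and differently numbered pairs at -0.196 to 0.105. With so few libraries these values cannot tell whether same-numbered samples share an origin. Fits with a replicate block called 4863 genes (12 libraries) or 4811 (6 libraries). With the block the higher acute phase count was 3 (12 libraries) or 9 (6 libraries) in place of 5, the higher lipogenesis count 8 (6 libraries) in place of 4, the lower glycolysis count 7 (both) in place of 4 and the lower complex I count 7 (6 libraries) in place of 3, and the calls of Gc, Trf, Rps10, Clec4f and mt-Co1 were lost in 1 or both fits. Of genes under 1 CPM 9.69% were called, with a median absolute log2 change of 1.66 among them, and whether depth set this share was not tested.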
